A study of Daphnia magna with 24 samples.

Results

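Water taken where mine drainage enters at Greenhorn Mine was set against water from upstream of the mine, using the whole-animal RNA of the water flea Daphnia magna. The comparison uses the 12 arrays labelled with these 2 sites out of 24 in the series. They make up 3 entry and 3 upstream exposures, each hybridised on 2 arrays with the dyes exchanged. Per the labels, the animals were adult females of a genetically homogeneous culture, 14 to 16 days old. Each exposure was a pool of 10 to 15 animals, held for 24 h in the field water at 23.5 °C. Each array also held RNA of unexposed animals kept in COMBO, a defined freshwater medium, and both sites had this kind of control. Both groups thus differ from the control in being in field water, and from each other in the site the water came from. The design text says that the sites carried different amounts of copper. The sources used here state neither these amounts nor the pH or other chemistry of the waters. The other arrays, from downstream 1 and downstream 2, enter the fit and are shown beside some values.

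Drainage from metal mines forms when sulfide minerals meet air and water, and it can carry acid, copper and other metals into streams. Copper is an enzyme cofactor that animals need in traces and that harms them in excess, through oxidative damage and, in freshwater crustaceans, by disturbing sodium uptake. Crustacean cells bind surplus copper with metallothioneins and glutathione, and Daphnia is a standard test animal for metals in water. Which of these genes lie on the array cannot be said here. Features carry array IDs only, the file does not pair them with genes, and a RefSeq table of Daphnia magna genes matched 0 of 7680 IDs. For this reason few IDs are printed, no sequence is shown, and no feature could serve as a check of the site labels.

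Each value is the log ratio between an array's channels and is read here as log2. No source used here states the base, so folds hold only if it is 2. Which channel is the numerator is not stated either. The likely order is exposed over control, since the design text sets exposures against the control. Signs are therefore given as positive and negative. A positive difference is a higher log ratio in entry water than in upstream water. Entry and upstream arrays had values for 7015 to 7317 features. After centring each array on its median and averaging both arrays of an exposure, 7388 features were tested with limma, a linear model that shares the spread between exposures across features.

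The 2 arrays of an exposure did not correlate equally well in all exposures. Across features, the dye-swapped pair of arrays correlated with r of 0.745, 0.643 and 0.652 in entry exposures 1, 2 and 3. The upstream values were 0.401, 0.636 and 0.151. The means were 0.680 ± 0.056 at the entry and 0.396 ± 0.242 upstream (SD, n = 3; exact permutation p 0.1, two-sided, the smallest that 3 against 3 allows). All upstream exposures lay below all entry exposures, and upstream exposure 3 was the lowest. Such an r falls with smaller log ratios as well as with more array noise, and these were not told apart. Among themselves the 3 entry exposures correlated with r from 0.24 to 0.568, and the 3 upstream exposures with r from -0.289 to 0.118. The 9 pairs across the sites gave r from -0.222 to 0.566. The highest were upstream exposure 2 with entry exposure 1 (0.566) and upstream exposure 3 with entry exposure 3 (0.405), both above every pair of upstream exposures. Each entry exposure also correlated more with the same-numbered downstream 1 exposure (r 0.755, 0.824 and 0.625) than with the other entry exposures. With the same-numbered downstream 2 exposures r was 0.187, 0.463 and 0.624. The fit took all exposures as independent. What these exposures had in common is not in the labels, and its part in the results was not tested. Features are not independent replicates, and these r values only describe the exposures. The typical feature's distance from the control did not separate the sites beyond the spread of the exposures. The median size of the log2 ratio was 0.189, 0.139 and 0.144 in the entry exposures and 0.214, 0.207 and 0.122 in the upstream ones. The difference of the site means was -0.023 (exact permutation p 0.5, two-sided, n = 3 per site).

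Against this spread, 98 of 7388 features (1.33%) differed between entry and upstream water at a Benjamini-Hochberg adjusted p under 0.05 in limma. Of these, 51 had a positive difference (0.69% of those tested) and 47 a negative one (0.636%). Sizes ran from 0.59 to 3.65 on the log2 scale, and 85 of the 98 exceeded 1. The median size was 1.38, against 0.14 over all tested features. Where all 6 exposures had a value, entry and upstream exposures did not overlap in any of these features, which was 97 of the 98. Over all features with 6 values, 958 of 7101 (13.5%) did not overlap. The same 6 exposures chose the 98, so their lack of overlap is no separate evidence. The plot of site means shows where the 98 lie.

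**Figure D1:**
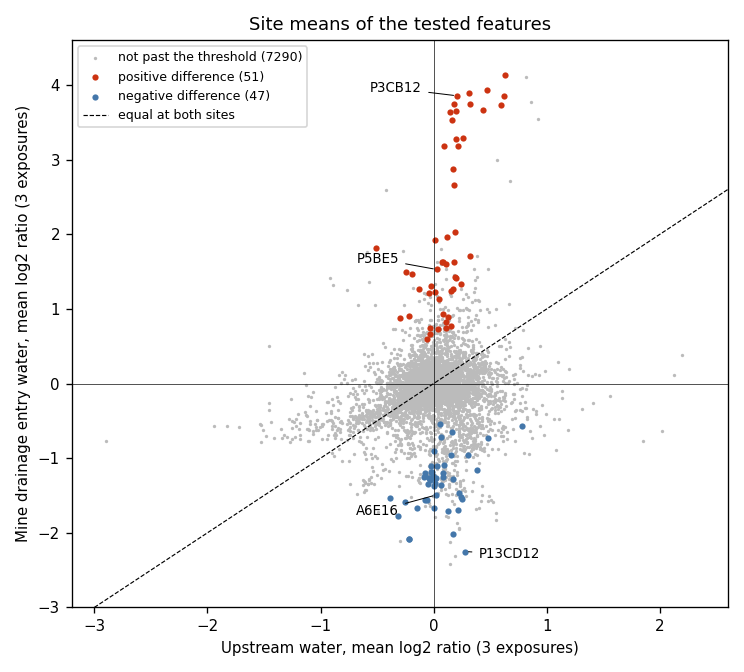
Mean log2 ratio to control of each of 7388 tested features in upstream water (horizontal axis) and entry water (vertical axis), each over 3 exposures, with the 51 positive and 47 negative features in colour. The coloured points lie near 0 on the upstream axis and spread from -2.25 to 4.13 on the entry axis.

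In 97 of the 98 features the entry mean was farther from 0, the level of the control, than the upstream mean. Over all tested features this was so in 3821 of 7388. Of the 342 features with a difference over 1 in size that did not pass, it was so in 287 and not in 55. The same values chose the 98, so this is no trait of theirs alone and no separate evidence. The upstream mean was under 0.5 in size in 93 of the 98 and in 6891 of the 7388, so the 98 were near the background in their upstream level. Against control, 97 of the 98 passed limma's threshold at the entry, where 405 of 7388 features (5.48%) did. Both tests use the same entry exposures, so this overlap is no separate evidence. Upstream against control, 0 of 7388 features (0%) passed in limma, and 480 had an unadjusted p under 0.05. The exception was A7O9, named because it was the only one and after its values were seen. It stood at 1.01 and 0.56 in upstream exposures 1 and 2, had no value in exposure 3, and was at -0.27, -0.78 and -0.66 in the entry exposures. Its difference was -1.35 (SE 0.22, limma adjusted p 0.028), with upstream water on the positive side of the control and entry water on the negative side.

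The positive features divided into 19 with a difference over 2 and 32 up to 2, with none between 1.91 and 2.33. This division was made after the values were seen. The largest was P3CB12. It was at 0.17, 0.23 and 0.22 in the 3 upstream exposures and at 2.52, 4.76 and 4.29 in the entry exposures. Upstream exposure means were thus nearly level, while entry exposure 1 fell well short of the other entry exposures. The single arrays of upstream exposure 1 stood at 0.49 (exposed RNA in Cy5) and -0.15 (in Cy3). The difference was 3.65 (SE 0.57, 95% interval 2.37 to 4.93, limma adjusted p 0.022), or 12.6-fold if the base is 2. It passed without entry exposure 1 (4.32, adjusted p 0.0033), and it did not pass when any other exposure of either site was left out (adjusted p 0.052 to 0.091) or when arrays were scaled to one spread (3.97, adjusted p 0.12).

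The 19 features moved together from one entry exposure to the next. Their medians were 2.39, 4.59 and 3.85 in entry exposures 1, 2 and 3, and in 19 of 19 exposure 1 was the lowest and exposure 2 the highest. Over all tested features with 3 entry values, 13.8% had this order. Upstream, the medians of the 19 were 0.23, 0.17 and 0.24. Pairs of the 19 correlated over the 12 exposures with a median r of 0.983 (lowest 0.864). These points share arrays, and the site difference that chose the features is part of them. Over the 6 downstream exposures, the median r for pairs of the 19 was 0.945 (171 pairs, lowest 0.309). These exposures did not enter the difference. They did enter the spread behind its p, so they are not free of the selection. The median SD between entry exposures was 1.13, against 0.16 upstream and 0.17 at the entry over all tested features. The size of the difference therefore varied with the exposure far more than the upstream level did. The 19 came from 12 of the 20 sets of IDs that share a first letter and number, and 18 of them carry the letter P.

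How many of the 19 passed varied with the exposure left out. All 19 passed without entry exposure 1, with a median difference of 3.86. Only 2 passed without entry exposure 2 (median 2.74), 2 without entry exposure 3 (3.16), 4 without upstream exposure 3 (3.44), and 0 without upstream exposure 1 or 2 (3.17 and 3.09). With arrays scaled to one spread 0 of the 19 passed, at a median of 3.45 and adjusted p from 0.065 to 0.19. With the arrays of exposed RNA in Cy5 alone 19 passed (median 3.59), and with those in Cy3 alone 11 (median 2.89).

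**Figure D2:**
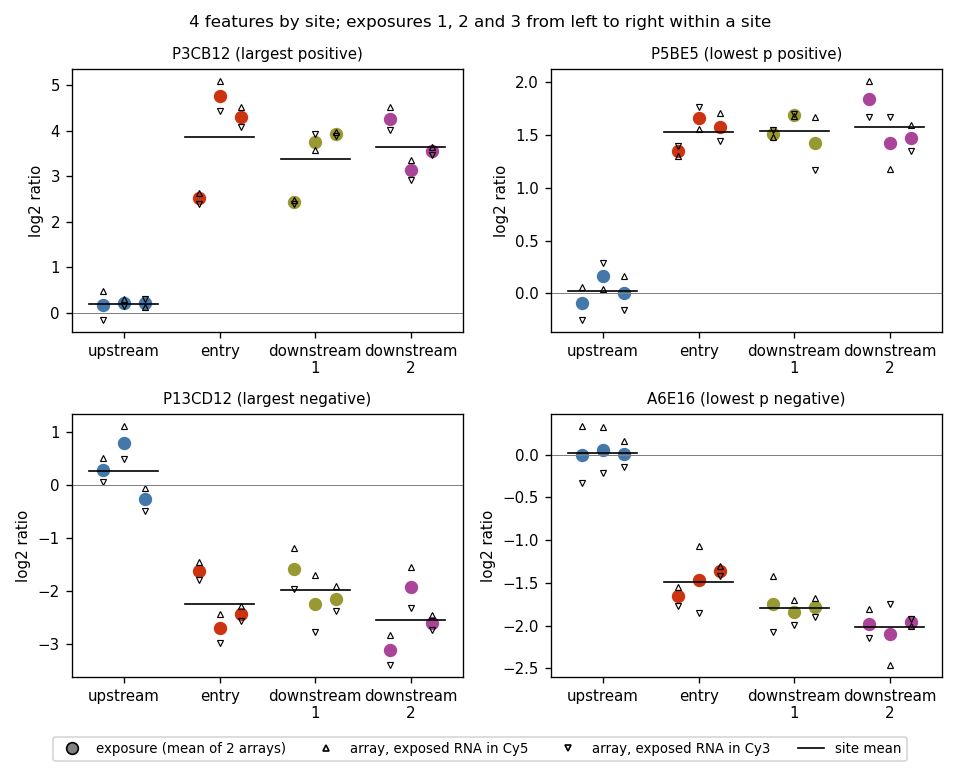
Log2 ratio to control of the 4 named features at each site, with filled circles for exposures, open triangles for the single arrays of either dye orientation and lines for site means. P3CB12 runs from 2.52 to 4.76 over the entry exposures, and A6E16 from -1.65 to -1.36, while all upstream exposures of both lie within 0.23 of 0.

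The 32 smaller positive features had a median difference of 1.22, from 0.62 to 1.91. Their medians were -0.008, 0.03 and 0.10 in the upstream exposures and 1.11, 1.41 and 1.15 at the entry. They kept closer together between exposures than the 19, with a median entry SD of 0.26. The order of the entry exposures was that of the 19 in 13 of 32 (40.6%). The positive feature of lowest p was P5BE5. It stood at -0.09, 0.17 and 0.0035 upstream and at 1.35, 1.66 and 1.57 at the entry. The spread was alike at both sites, with an SD of 0.13 upstream and 0.16 at the entry (n = 3). Its difference was 1.50 (SE 0.14, 95% interval 1.19 to 1.82, limma adjusted p 0.0011), a 2.84-fold ratio if the base is 2. P5BE5 passed without each exposure in turn, at 1.44 to 1.59, and with scaled arrays (1.62, adjusted p 0.041).

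The 47 negative features had a median difference of -1.30, from -0.59 to -2.53, and only 2 were beyond -2. Their medians were -0.04, 0.18 and -0.10 in the upstream exposures and -1.31, -1.22 and -1.32 at the entry. The entry medians of the negative features were therefore nearly level over the exposures, unlike those of the 19. The median SD at the entry was 0.16 for the negative features and 0.42 for all 51 positive ones. No order of the entry exposures was held by more than 12 of the 47. Over the 6 downstream exposures, pairs of the 47 correlated with a median r of 0.261 (lowest -0.954, highest 0.996). The level medians thus do not show that no negative features moved together.

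Among the 10 features of lowest p, 8 were negative. The lowest p of all belonged to A6E16. It was at -0.002, 0.05 and 0.01 in the upstream exposures and at -1.65, -1.46 and -1.36 at the entry. Its single upstream arrays lay on both sides of 0, at 0.33, 0.32 and 0.17 with exposed RNA in Cy5 and at -0.34, -0.22 and -0.14 with exposed RNA in Cy3. Upstream, its sign thus went with the dye orientation, and the mean of both arrays came close to 0 in each upstream exposure. A dye effect on A6E16 was not tested. Its difference was -1.51 (SE 0.093, 95% interval -1.72 to -1.31, limma adjusted p 0.00012), a 2.85-fold ratio if the base is 2. A6E16 passed without each exposure in turn, at -1.58 to -1.43, and not with scaled arrays (-1.58, adjusted p 0.073).

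The largest negative difference was that of P13CD12. It stood at 0.29, 0.81 and -0.27 upstream and at -1.63, -2.70 and -2.43 at the entry. Unlike A6E16 it varied at both sites, with an SD of 0.54 upstream and 0.56 at the entry (n = 3). The difference was -2.53 (SE 0.39, 95% interval -3.40 to -1.66, limma adjusted p 0.021), a 5.77-fold ratio if the base is 2. P13CD12 passed without entry exposure 1 or upstream exposure 3, and did not pass without any 1 of the other 4 (-2.52 to -2.26, adjusted p 0.063 to 0.087) or with scaled arrays (-2.61, adjusted p 0.12).

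**Figure D3:**
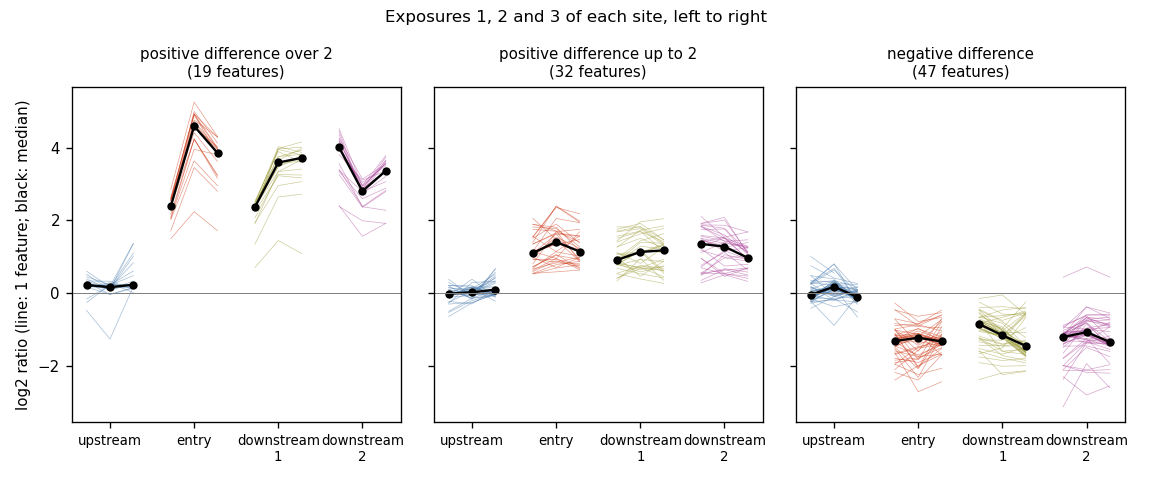
Log2 ratio to control in exposures 1, 2 and 3 of each site for the 19 positive features over 2, the 32 positive features up to 2 and the 47 negative features, with 1 coloured line per feature and black points for the median. The median of the 19 goes from 2.39 to 4.59 within the entry exposures, while that of the 47 stays between -1.32 and -1.22.

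The features that differed were spread over the array's IDs with some unevenness. IDs fall into 20 sets of 384 features by their first letter and number, and no source used here says what the sets stand for. Of the features with letter A, 26 of 2452 differed (1.06%), and of those with letter P, 72 of 4936 (1.46%). Per set, between 0 and 12 features differed. The 12 were in set A6 (3.16% of 380 tested), and 10 of them were negative. The 10 had differences from -1.75 to -1.14 and held 4 of the 10 lowest p-values. Their median was 0.00098 upstream and -1.50 at the entry. Sets A4 and A5 had 0 of 378 and 0 of 364. The median difference over all features of a set ran from -0.096 in A5 to 0.08 in P4, and its part in the counts per set was not tested.

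Downstream water was measured against the same kind of control, and its levels are given beside those of the entry. The 19 largest positive features had a median site mean of 0.21 upstream. It was 3.65 for the entry, 3.22 for downstream 1 and 3.47 for downstream 2. The 32 smaller positive features had medians of 0.08, 1.27, 1.09 and 1.27 in that order, and the 47 negative ones 0.02, -1.27, -1.18 and -1.18. Over all tested features the medians were -0.012, -0.024, 0.021 and 0.0067. Both downstream sites thus lay near the entry and away from upstream in the medians of all 3 groups. In the 19, exposure 1 was again low at downstream 1, where the medians were 2.37, 3.59 and 3.72, while at downstream 2 exposure 2 was lowest (4.01, 2.80 and 3.36). P5BE5 kept one level at the mine-water sites, with an entry mean of 1.53 ± 0.16, a downstream 1 mean of 1.54 ± 0.14 and a downstream 2 mean of 1.58 ± 0.23 (SD, n = 3). A7O9 was at 0.54 ± 0.16 at downstream 2 (SD, n = 3), on the upstream side of 0.

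**Figure D4:**
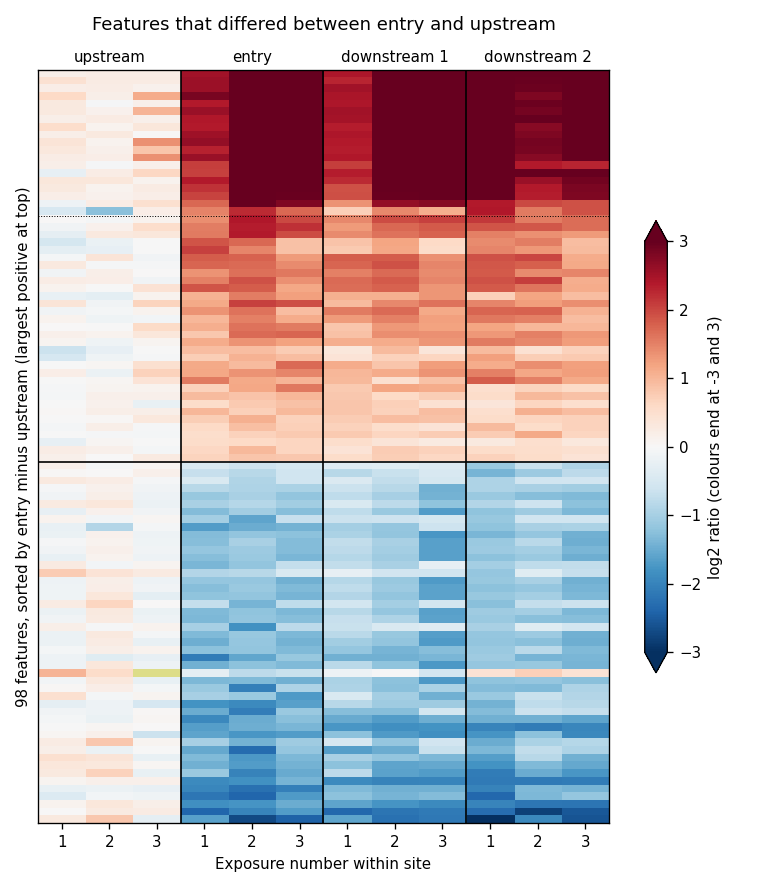
Log2 ratio to control of the 98 differing features (rows, sorted by entry minus upstream) in the 12 exposures (columns), with 19 features above the dotted line and 51 above the solid line, and a yellow cell where a value is missing. Most cells of the upstream columns are pale, and the top rows are paler in exposure 1 of the entry and of downstream 1 than in exposures 2 and 3.

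Many large differences did not pass. Of 427 tested features with a difference over 1 in size, 85 passed and 342 did not. Those 342 were mostly negative, 283 against 59 positive, whereas the 98 were nearly balanced. Their exposures did not overlap in 207, overlapped in 102 and had a missing value in 33. In 309 of the 342 the SD was over 0.5 at one or both sites, compared with 27 of the 98. The median SE was 0.47 for the 342 and 0.22 for the 98. Of 74 features with an upstream mean over 1 in size, 0 passed, and of 304 with an entry mean over 1, 79 did. The half-width of the unadjusted 95% interval of the difference was 0.42 for the median feature, so smaller differences were not detectable in a feature of typical spread. The adjusted threshold is stricter than this interval, so differences well above 0.42 could be missed as well. The smallest difference among the 98, 0.59 in size, had an SE of 0.12. Next to the threshold, the last feature inside had a limma adjusted p of 0.049, a size of 1.09 and an SE of 0.22. The first outside had a limma adjusted p of 0.053 and a size of 1.02.

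The count of 98 rested on all 6 exposures and on the other sites' spread. It was 64, 20 and 41 without entry exposure 1, 2 and 3, and 15, 14 and 52 without upstream exposure 1, 2 and 3. With entry and upstream fitted alone 7 features passed, 1 of them positive, all among the 98, and 644 had an unadjusted p under 0.05. With scaled arrays 58 passed, of which 29 were among the 98, and 32.8% of them were positive, against 52% before scaling. Of the 2 pairs that correlated most across the sites, leaving out upstream exposure 2 with entry exposure 1 gave 35 features, 32 of them among the 98. Leaving out upstream exposure 3 with entry exposure 3 gave 28, 21 of them among the 98. The labels do not say that exposures came from separate cultures, water collections or control RNAs, so the p-values reflect only how these exposures vary, and part of that may be technical.

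**Figure D5:**
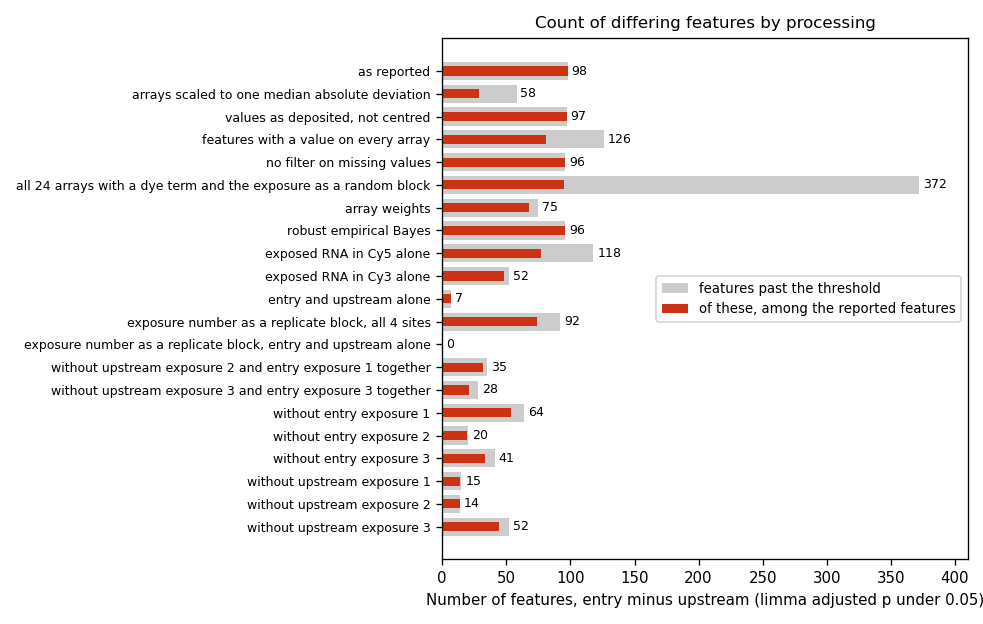
Number of features past limma's adjusted threshold for entry minus upstream under each processing (grey bars) and how many of them are among the 98 reported (red bars). The count runs from 0 with both sites alone and the exposure number as a block to 372 with all 24 arrays in one fit.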

How the data were processed

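Per the labels' protocols, RNA of exposed and control animals was labelled with Cy3 or Cy5 by aminoallyl coupling and hybridised on 2-colour arrays, with the dyes exchanged between both arrays of an exposure. The deposited values are log ratios, taken as log2. No source used here states the base, direction, scanner, background correction or normalization. The medians of the authors' entry and upstream arrays, from -0.0194 to 0.01, show values centred or nearly so. All 15 pairs of entry and upstream exposures gave positive correlations of the difference between both dye orientations (r from 0.347 to 0.667), so these exposures run one way.

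Arrays were median-centred, and the dye-swapped pair was averaged so that 1 exposure is 1 replicate. Testing needed values in 2 or more of the 3 exposures of each site, met by 7388 of 7680 features. The 12 exposures of all 4 sites entered one limma fit without pairing (limma 3.58.1, R 4.3.3), with degrees of freedom of 8 (residual) and 1.79 (prior), and Benjamini-Hochberg adjustment over all tested features. Single values per exposure were compared by exact permutation. The features named had to pass and have no overlap of the exposures. In each direction they are the one of largest difference and the one of lowest p. Lists of metal, cuticle and stress genes were planned and not run, because no ID could be named. The members and lists were chosen with earlier results of these data known. The limma step alone was tested on simulated exposures with independent noise. Variation shared between exposures was not simulated. Alternatives changed scaling, centring, filters, weights, dyes, pairing and exposures. Figures used matplotlib 3.10.9 in Python 3.11.15.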

Additional observations from a re-analysis of the deposited data

How the results depend on the processing

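The count of features that differed between entry and upstream, 98 as reported, was within 1.5 times of that with uncentred values, both other filters on missing values, array weights, robust variances and exposed RNA in Cy5 alone. It fell to 58 when arrays were scaled and reached 372 with all 24 arrays, a dye term and the exposure as a random block. It was 52 with exposed RNA in Cy3 alone, 7 with both sites alone, 35 without upstream exposure 2 and entry exposure 1 together, and 28 without exposure 3 of both sites, the last 2 settings being chosen after seeing the data. Leaving out 1 exposure gave 14 to 64. Fewer exposures or sites leave fewer degrees of freedom. The 24-array fit has more, 19 residual against 8, since both arrays of an exposure enter it singly. The cause of the other shifts was not tested. Same-numbered entry and upstream exposures deviated from their site means with r of -0.127, -0.612 and 0.553. These differ in sign, and 3 exposures per site cannot show whether the number pairs them. Across numbers, entry 1 with upstream 2 gave 0.66 and entry 2 with upstream 1 gave 0.43. With it as a replicate block 92 features passed over all 4 sites and 0 with both sites alone (545 at an unadjusted p under 0.05, 2 residual degrees of freedom). For entry against control, 405 turned into 699 in the 24-array fit, 676 under array weights, 609 for Cy5 alone and 144 to 413 with 1 exposure left out. For upstream against control, 0 became 163 with Cy5 alone and stayed 0 with Cy3 alone. In 1 dye orientation a feature's dye effect is not averaged out, and its part in these counts was not tested. Over 20 alternatives each, P5BE5 passed in 19, A6E16 in 18, P13CD12 in 12 and P3CB12 in 11. With arrays only, no depth can be given, and the number of exposures limits the precision.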
